A study of Mus musculus with 24 samples.

Results

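The genes described here are 10 factors of the epiblast and of naive pluripotency: the transcription factor genes Nanog, Sox2, Klf2, Klf4, Klf5, Esrrb, Nr5a2 and Zfp42, and the genes of the secreted or surface-bound factors Fgf4 and Tdgf1. They were taken by symbol from a count table of 37229 genes, where all 10 were found, and all 10 were also among the 15625 genes of the deposited TPM table and the 15875 genes that entered the tests. RNA was sequenced from 24 single whole mouse embryos, all conceived in vitro from ICR mice. Control embryos stayed intact and comprised 4 at the 8-cell stage, 5 morulae and 3 blastocysts. Split embryos were each grown from a single blastomere of a two-cell embryo whose blastomeres had been parted by micromanipulation, and comprised 6 morulae and 6 blastocysts, in 3 sister pairs at each stage. Separated blastomeres were cultured singly in a modified sodium hyaluronate gel, whereas controls were neither separated nor pretreated in biopsy medium, so the separation, the pretreatment and any effect of the gel cannot be told apart. The comparisons ask how far split embryos come to resemble intact embryos of the same stage. No split 8-cell embryos were among the samples, and nothing in the labels gives the age in hours, the sex, the litter or the batch of an embryo.

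In the mouse preimplantation embryo, outer cells become trophectoderm and inner cells form the inner cell mass, which then sorts into epiblast and primitive endoderm. Nanog and Sox2 act with Oct4 (the product of Pou5f1) to hold epiblast cells in the naive, ground-like state, and Klf2, Klf4, Klf5, Esrrb and Nr5a2 are further parts of that network. Fgf4 is the ligand through which epiblast precursors direct their neighbours towards primitive endoderm, Tdgf1 (Cripto) is a co-receptor for Nodal, and Zfp42 (Rex1) is a widely used marker of naive cells. Several of these genes are also transcribed in cleaving embryos before any epiblast exists, and the embryos were sequenced whole, so fewer cells of a type and less RNA per cell cannot be told apart.

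Total counts were 26.3 to 38.5 M per embryo at the 8-cell stage and 11.3 to 25.2 M in the 4 later groups, so 8-cell libraries were the deepest. Mitochondrially encoded transcripts averaged 3.99% of counts in control morulae, 2.59% in split morulae, 4.2% in control blastocysts and 1.69% in split blastocysts. Summed levels of 12 trophectoderm markers were 191 to 299 CPM (read counts scaled to a fixed library total, with TMM factors) at the 8-cell stage and 2005 to 3083 CPM in control blastocysts. Of 10 cumulus and granulosa markers the sum never passed 13.7 CPM, with Amh, Foxl2 and Fshr at 0 in every embryo. The sum of 6 fibroblast markers never passed 8.31 CPM.

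Of the 10 genes, 8 had counts in every embryo. Sox2 had 0 counts in 8 of the 24 embryos and Esrrb in 1. Levels were compared between genes as TPM (scaled to a fixed total after allowing for gene length). At the 8-cell stage the most abundant was Klf5 at a mean of 181 TPM, followed by Klf2 at 123, Zfp42 at 115, Nr5a2 at 102 and Klf4 at 90.8 TPM. Nanog followed at 38.4 TPM, Tdgf1 at 22.1, Esrrb at 12.2 and Fgf4 at 7.63 TPM, while Sox2 was listed at 0. Each of these genes down to Fgf4 overlapped its neighbour in the order from embryo to embryo.

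By the control morula the order had turned over. Zfp42 stood first at 356 TPM and Nanog second at 332 TPM, with overlapping embryos, and both lay clear of Klf5 at 146 TPM in every embryo. Tdgf1 at 56.1, Fgf4 at 46.9, Nr5a2 at 31.5, Klf2 at 20.9 and Klf4 at 20.7 TPM each overlapped the next, and Esrrb (2.71) and Sox2 (2.47) came last and overlapped. In control blastocysts Zfp42 led at 580 TPM, clear of Klf5 at 376, which overlapped Nanog at 256 TPM. The next 6 genes, from Fgf4 at 69.4 through Tdgf1, Sox2 (46.1), Nr5a2 and Klf4 to Klf2 at 36.4 TPM, each overlapped their neighbour, and Esrrb was lowest at 11.7 TPM. Split morulae were led by Zfp42 (398), Nanog (284) and Klf5 (188 TPM), each overlapping the next, with Esrrb (3.21) and Sox2 (2.58) last. Split blastocysts were led by Zfp42 at 508 TPM, clear of Klf5 (260) and Nanog (236), which overlapped, and Sox2 (14.9) and Esrrb (3.98) were again last and overlapped.

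**Figure D1:**
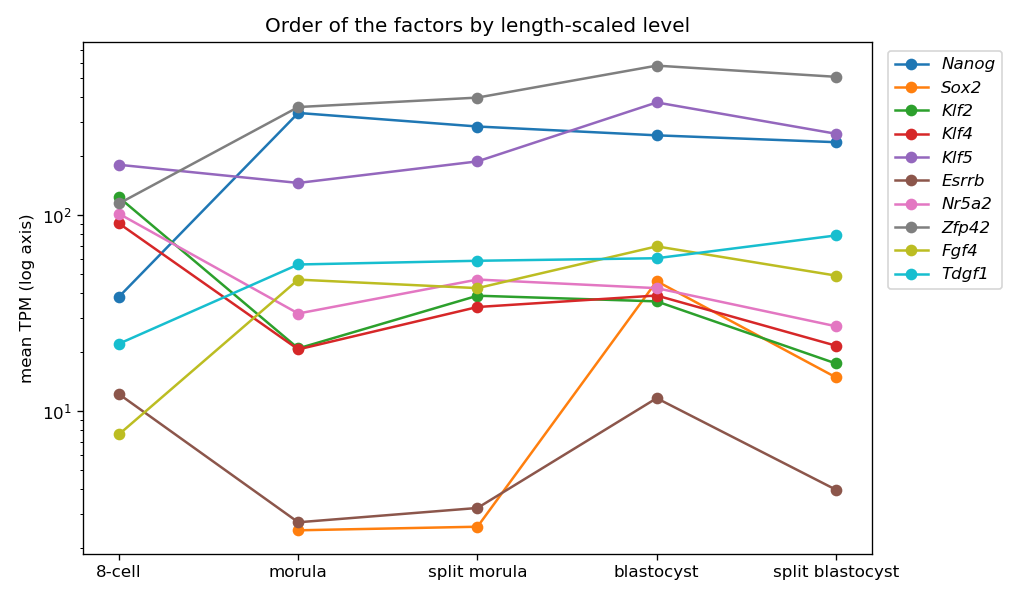
Mean TPM of each factor (log axis) in the 5 groups, with sister embryos averaged first; Sox2 is at 0 TPM in 8-cell embryos and has no point there. Nanog goes from 38.4 to 332 TPM and Zfp42 from 115 to 356 TPM between the 8-cell stage and the control morula, where both lie above Klf5, and Sox2 goes from 2.47 TPM in control morulae to 46.1 TPM in control blastocysts.

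The first comparison asked how the factors changed as intact embryos went from the 8-cell stage to the morula. They split into opposite movements: Nanog, Sox2, Zfp42 and Fgf4 rose, and Klf2, Klf4, Esrrb and Nr5a2 fell. Klf5 and Tdgf1 did not pass the test. These 8 calls of 10 (4 higher, 4 lower; edgeR's quasi-likelihood test with Benjamini-Hochberg adjustment over all tested genes, adjusted p under 0.05) stand against 24.9% of all tested genes called, 14.3% higher and 10.7% lower. The median log2 change of the 10 was 0.46, against 0.09 over all tested genes. Embryos of the groups did not overlap for 7 of the 10 genes, against 22% of all tested genes.

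Nanog, the homeodomain factor that marks the epiblast, was at 89.3, 34.0, 8.82 and 34.1 CPM in the 4 8-cell embryos and at 358, 250, 340, 387 and 296 CPM in the 5 control morulae. Every morula was above every 8-cell embryo, and the 8-cell embryos were far more uneven than the morulae. The rise was log2 3.04 ± 0.69 (standard error), from a mean of 41.6 ± 34.0 (SD, n = 4) to 326 ± 54.0 CPM (n = 5), with an adjusted p of 0.00425 by edgeR. Without 8-cell embryo 1, the highest of its group, it was log2 3.75.

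Sox2, the HMG-box partner of Oct4, had 0 counts in all 4 8-cell embryos, which allows at most 0.0906 to 0.132 CPM per library (counting error only). The control morulae had 1.40, 2.28, 4.87, 2.28 and 0.343 CPM. Sox2 was therefore detected in each control morula, at a low level, and was at least 20.4-fold higher than the limit of 3 counts at the median 8-cell library (adjusted p = 0.000625, edgeR). The 8-cell libraries held 26.3 to 38.5 M counts and those of the control morulae 13.9 to 19 M.

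Zfp42, a zinc finger gene of naive cells, measured 165, 90.0, 47.0 and 113 CPM in 8-cell embryos and 287, 299, 326, 281 and 276 CPM in control morulae. Morulae were all higher and nearly level with each other. The rise was log2 1.57 ± 0.25 (adjusted p = 8.70e-05, edgeR). Among genes of like level in control morulae, 4.58% varied less between embryos than Zfp42.

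These 3 genes, which rose together in the nuclear factor class, were looked up in RefSeq's promoter windows (build GRCm38.p6, 250 bases before to 50 after the start of transcription). Their windows are shown 5′ to 3′ on the gene's strand, with matches to the octamer core TTTGCAT, the element that POU factors such as Oct4 bind, and to the SOX core ACAATG in capitals. The windows lie at chr6:122707239-122707538 (+) for Nanog, chr3:34649745-34650044 (+) for Sox2 and chr8:43306960-43307259 (-) for Zfp42.
Nanog: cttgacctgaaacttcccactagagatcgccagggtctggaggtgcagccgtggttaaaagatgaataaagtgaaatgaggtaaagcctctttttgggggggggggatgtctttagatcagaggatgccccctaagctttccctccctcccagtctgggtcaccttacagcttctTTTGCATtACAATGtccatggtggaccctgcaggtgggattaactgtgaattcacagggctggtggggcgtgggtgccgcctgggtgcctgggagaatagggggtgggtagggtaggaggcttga
Sox2: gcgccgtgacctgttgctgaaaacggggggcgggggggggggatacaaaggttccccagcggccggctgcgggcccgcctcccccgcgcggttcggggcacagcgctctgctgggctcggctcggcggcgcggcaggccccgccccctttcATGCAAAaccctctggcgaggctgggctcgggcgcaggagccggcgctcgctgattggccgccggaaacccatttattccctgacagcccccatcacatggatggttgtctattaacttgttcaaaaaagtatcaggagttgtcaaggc
Zfp42: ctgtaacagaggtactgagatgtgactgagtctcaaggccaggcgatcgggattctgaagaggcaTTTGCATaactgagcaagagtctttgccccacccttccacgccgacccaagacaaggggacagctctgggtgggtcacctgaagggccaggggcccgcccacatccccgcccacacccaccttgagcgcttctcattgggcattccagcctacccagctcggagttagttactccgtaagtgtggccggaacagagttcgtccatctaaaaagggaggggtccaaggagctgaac
In Nanog the octamer core at -75 to -69 and the SOX core at -67 to -62 were a single base apart. In Sox2 the octamer core lay on the opposite strand at -99 to -93, so it reads in reverse complement above, and in Zfp42 it lay on the gene's own strand at -185 to -179.

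Of 32851 promoter windows of this length, 4.63% held TTTGCAT on either strand and 12.6% held ACAATG. The joined form TTTGCATNACAATG, which overlaps both, was in 2 windows (0.00609%), and both were Nanog windows with nearby starts. Of the 9 factors with a window in the table, Nanog, Sox2 and Zfp42 held TTTGCAT, and Nanog and Esrrb held ACAATG. The KLF box GGGTGTGG (3.56% of windows) was found in Zfp42, on the opposite strand at -75 to -68, and is not capitalised above. The site AAGGTCA bound by orphan receptors such as Esrrb and Nr5a2 (4.72% of windows) was in none of the 9. A match describes letters in a window and is not evidence of binding, and a missing match concerns these letters in this window only. Klf5 was not matched in the table.

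Fgf4, the ligand, was at 5.11, 10.01, 30.7 and 2.41 CPM in 8-cell embryos and at 92.8, 13.95, 39.3, 170 and 13.8 CPM in control morulae. The groups overlapped, since 2 morulae were below the highest 8-cell embryo. The change was log2 2.53 ± 0.86 (adjusted p = 0.0400, edgeR). The call was lost without 8-cell embryo 1, 2 or 4 or without morula 1 or 4 (adjusted p from 0.0666 to 0.0971), and without morula 4 the change was log2 1.81. Tdgf1 was at 47.6, 18.3, 26.7 and 19.95 CPM in 8-cell embryos and at 60.2, 29.3, 40.0, 93.0 and 98.6 CPM in control morulae, overlapping, with a log2 difference of 1.26 ± 0.61 that did not pass (adjusted p = 0.136).

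The Krüppel-like factor genes Klf2 and Klf4, which sustain naive pluripotency in embryonic stem cells, fell. Klf2 was at 96.7, 79.1, 131 and 130 CPM in 8-cell embryos and at 13.3, 14.02, 10.6, 39.2 and 8.46 CPM in control morulae. No embryo of the groups overlapped, and the change was log2 -2.60 ± 0.43 (adjusted p = 0.000107, edgeR). Klf4 was at 217, 69.1, 103 and 143 CPM and then at 27.2, 30.5, 17.3, 21.7 and 41.3 CPM. It too was lower in every morula, at log2 -2.20 ± 0.36 (adjusted p = 8.81e-05). Klf5, a family member also known for its part in trophectoderm and early lineage choice, ranged from 147 to 769 CPM in 8-cell embryos and from 258 to 474 CPM in control morulae. The log2 difference of Klf5 was -0.34, with a 95% interval of -1.02 to 0.34 (adjusted p = 0.479), and 99.7% of genes of like level varied less than Klf5 between 8-cell embryos.

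The orphan nuclear receptor genes fell as well. Nr5a2, whose product can drive Pou5f1 transcription, was at 249, 239, 271 and 388 CPM in 8-cell embryos and at 51.2, 81.5, 87.9, 74.6 and 112 CPM in control morulae. The ranges were well apart, and the change was log2 -1.74 ± 0.25 (adjusted p = 2.55e-05, edgeR). Esrrb was at 28.2, 41.2, 46.0 and 27.9 CPM and then at 14.4, 6.32, 0.0760, 12.1 and 3.09 CPM. All morulae were lower, and the third rested on 1 read. The change of Esrrb was log2 -2.24 ± 0.79 (adjusted p = 0.0419), and it no longer passed without any single 8-cell embryo or without morula 2 or 5 (adjusted p from 0.0511 to 0.0835).

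**Figure D2:**
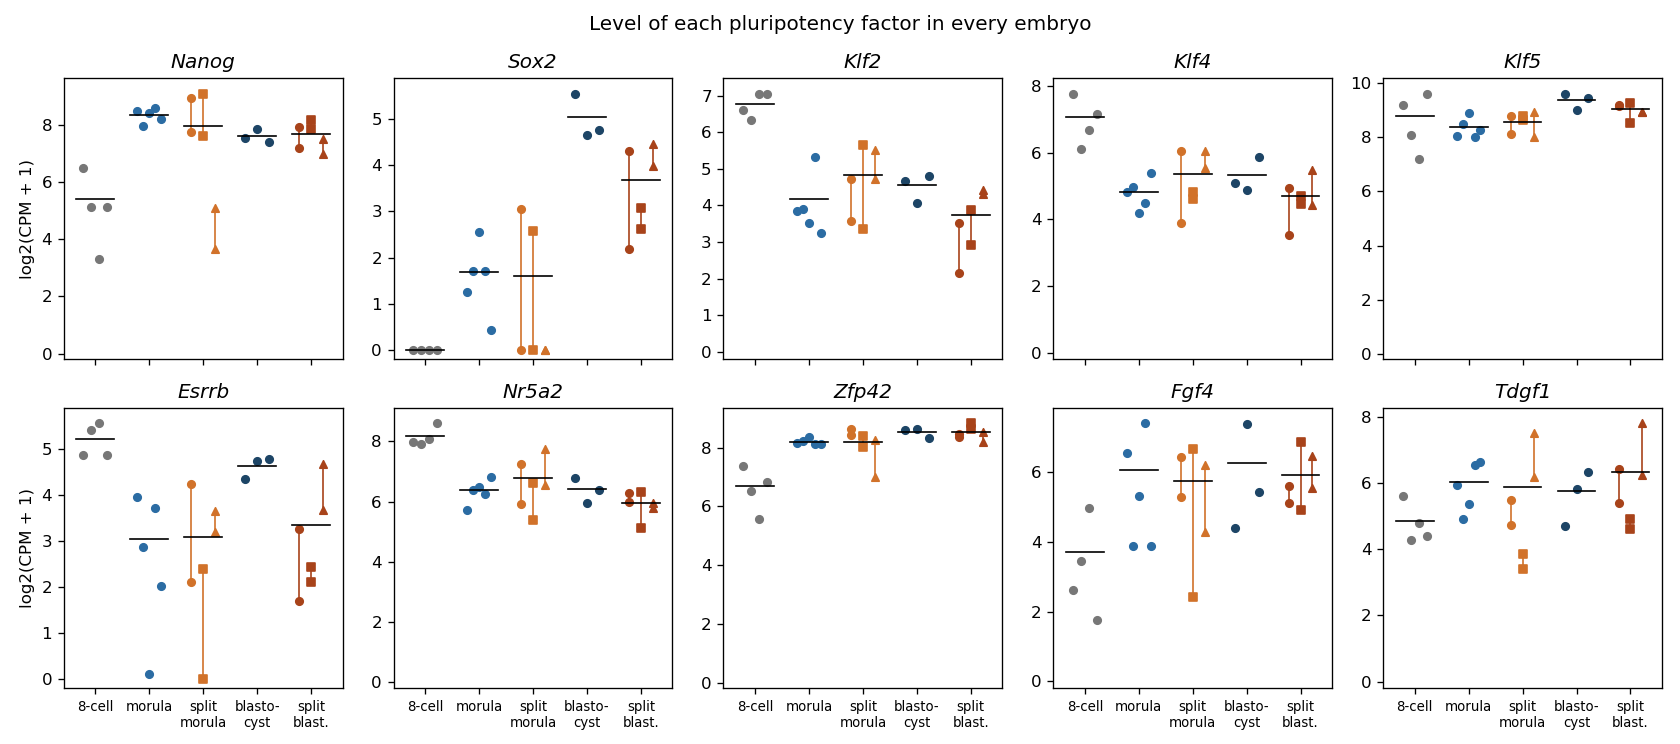
Level of each of the 10 factors as log2(CPM + 1) in every embryo, by group; lines join sister embryos, marker shapes are sister pairs 1 (circle), 2 (square) and 3 (triangle), and black bars are log2(mean CPM + 1) with sisters averaged first. Sox2 is at 0 in all 8-cell embryos and in 4 of 6 split morulae, and the third split morula pair is far below the others for Nanog.

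The second comparison followed intact embryos from morula to blastocyst. Of the 10 factors Sox2 alone was called, upward, against 10.6% of all tested genes called and 3.12% called higher. At an unadjusted p under 0.05 there were 2 of the 10, Sox2 and Klf5, against 25.1% of all tested genes. The median log2 difference of the 10 was 0.28, against 0.11 over all tested genes. Embryos did not overlap for 4 factors, Nanog, Sox2, Klf5 and Esrrb, against 25.3% of all tested genes.

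Sox2 was at 45.7, 24.1 and 26.2 CPM in the 3 control blastocysts, against at most 4.87 CPM in any control morula. The mean went from 2.23 ± 1.67 (SD, n = 5) to 32.0 ± 11.9 CPM (n = 3), a rise of log2 3.75 ± 1.13 (adjusted p = 0.0389, edgeR). The groups were widely apart, yet the call was lost without morula 1, 2, 4 or 5 or without any single blastocyst (adjusted p from 0.0728 to 0.161), while the change stayed between log2 3.40 and 3.91. With the replicate number as a block it was log2 3.36 (adjusted p = 0.223).

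Nanog was at 187, 230 and 167 CPM in control blastocysts, all below the lowest control morula. Its log2 difference was -0.83 ± 0.69 (adjusted p = 0.518, edgeR over all groups), and the fit's spread for Nanog also took in the uneven 8-cell and split embryos. In a fit of control morulae and blastocysts alone the log2 difference was -0.83 with an adjusted p of 0.00641. Klf5 was at 772, 507 and 694 CPM, all above the highest control morula at 474 CPM, with a log2 difference of 0.89 ± 0.35 (adjusted p = 0.114), and in that smaller fit its adjusted p was 0.00999.

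Esrrb was at 19.2, 25.7 and 26.5 CPM in control blastocysts, all above the highest control morula at 14.4 CPM. The log2 difference was 1.64 ± 0.82 (adjusted p = 0.224, edgeR), and limma on log2(TPM + 1) gave 2.04, or 1.66 beyond the median of all genes on that scale, with an adjusted p of 0.0162. The other 6 factors had overlapping embryos. Their log2 differences were 0.31 for Klf2, 0.43 for Klf4, -0.04 for Nr5a2, 0.24 for Zfp42, 0.15 for Fgf4 and -0.37 for Tdgf1. Of these, the 95% interval was narrowest for Zfp42, at -0.31 to 0.79, and widest for Fgf4, at -1.66 to 1.95. Fgf4 was at 20.2, 168 and 42.7 CPM in the 3 blastocysts, and 99.8% of genes of like level varied less between them.

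**Figure D3:**
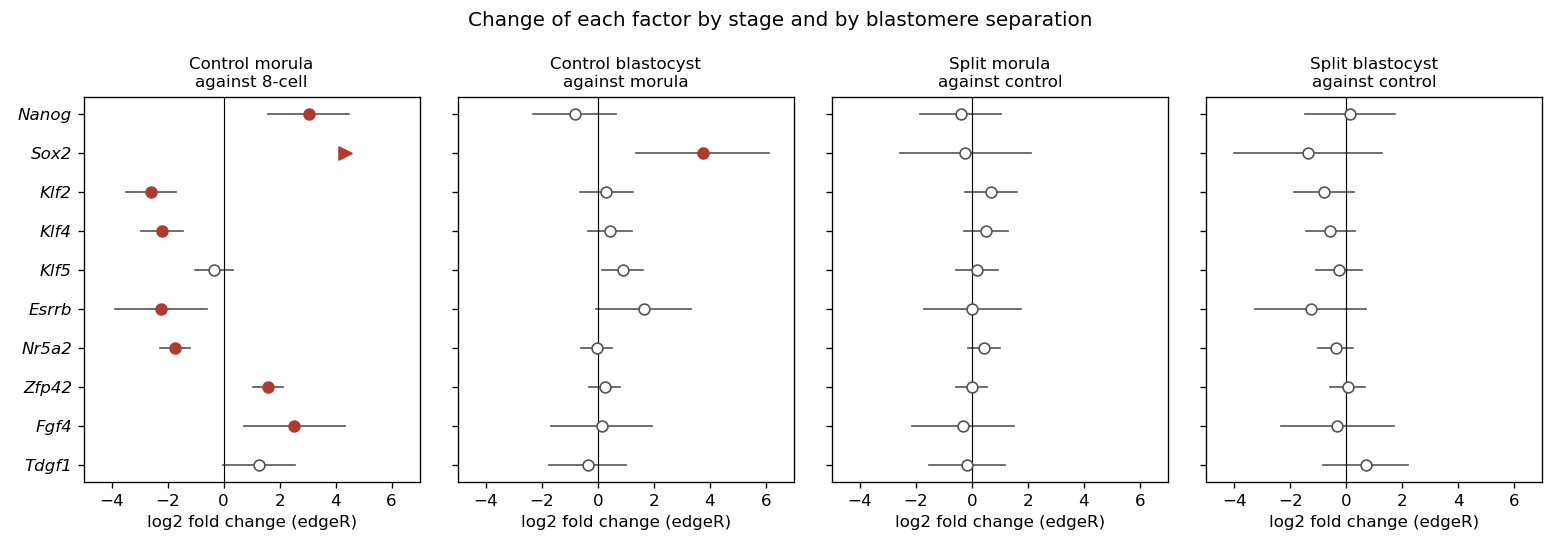
Log2 fold change of each factor with its 95% interval in 4 comparisons; filled red symbols passed an adjusted p of 0.05. The triangle for Sox2 in the first panel is the lower bound of its fold (at least 20.4), since all 8-cell embryos were at 0. Of the 10 factors, 8 passed from 8-cell to morula, 1 from morula to blastocyst, and none in the split against control panels.

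The third comparison asked whether embryos grown from separated blastomeres differed from intact morulae. None of the 10 factors was called by edgeR, none had an unadjusted p under 0.05, and none was called by DESeq2, limma-voom or limma on TPM. Over all tested genes 0.126% were called, and 15% had an unadjusted p under 0.05. Embryos overlapped for all 10 factors, where 2.28% of tested genes had embryos that did not. The median log2 difference was 0.01 for the 10 and 0 for all tested genes.

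Zfp42 had the narrowest interval. It measured from 127 CPM through a median of 317 to 395 CPM over the 6 split morulae, against 276 to 326 CPM in controls, with a log2 difference of -0.00 (95% interval -0.55 to 0.55). Nr5a2 (log2 0.44, interval -0.12 to 1.00), Klf5 (0.18, -0.55 to 0.92), Klf4 (0.50, -0.28 to 1.29) and Klf2 (0.69, -0.24 to 1.61) followed. Klf2 ran from 9.30 through a median of 25.4 to 49.1 CPM and Klf4 from 13.95 through 36.3 to 65.6 CPM in split morulae. Intervals were wide for Tdgf1 (-1.53 to 1.20), Esrrb (-1.73 to 1.77), Fgf4 (-2.14 to 1.52) and Sox2 (-2.58 to 2.12), so changes of a few-fold in these genes were not detectable here. The 12 trophectoderm markers summed to 648 to 2479 CPM in split and 644 to 1058 CPM in control morulae, and their part in these values was not tested.

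Nanog varied widely among split morulae. Pair 1 had 217 and 491 CPM, pair 2 had 541 and 197 CPM, and pair 3 had 11.5 and 33.1 CPM. Both embryos of pair 3 were below every control morula, the lowest of which had 250 CPM, and lay in the range of 8-cell embryos. The log2 difference between groups was -0.41 ± 0.68 (95% interval -1.85 to 1.04, adjusted p = 0.900, edgeR), and 99.8% of genes of like level varied less among split morulae.

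Pair 3 stood apart for Tdgf1 too, at 71.6 and 181 CPM against 9.48 to 44.1 CPM in the other 4 split morulae. Sox2 had 0 counts in both embryos of pair 3, but also in blastomere 1 of pairs 1 and 2. The second embryo of pair 3 had the lowest Zfp42, at 127 CPM, while its sister had 302 CPM. Klf2 at 25.4 and 45.1 CPM and Esrrb at 11.6 and 8.19 CPM lay within the range of the other split morulae. The depth of these libraries, 17 and 16 M, was that of the other split morulae, whereas the first had the fewest genes detected of the 24 embryos (10372) and the second the most of its group (12124). The part of gene detection in these values was not tested.

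The fourth comparison set split against intact blastocysts. Again none of the 10 factors was called by edgeR, where 4.74% of all tested genes were, and none had an unadjusted p under 0.05, against 15.2% of tested genes. DESeq2, limma-voom and limma on TPM called none either. The median log2 difference of the 10 was -0.34, against 0 over all tested genes, and 3 of the 10 estimates were above 0. Embryos did not overlap for Sox2 only, against 17.5% of all tested genes.

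Sox2 was at 18.7 and 3.54 CPM in pair 1, 5.13 and 7.48 CPM in pair 2, and 14.8 and 20.9 CPM in pair 3. Every split blastocyst was below the lowest control blastocyst (24.1 CPM), and every split blastocyst had Sox2 reads. Means were 11.8 ± 5.81 (SD, n = 3 pairs) and 32.0 ± 11.9 CPM (n = 3). The log2 difference was -1.37 ± 1.26 (95% interval -4.00 to 1.27, adjusted p = 0.752, edgeR), and in a fit of these 2 groups alone it was -1.43 with an adjusted p of 0.0499.

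Markers of other lineages were read in the same embryos. Summed levels of the 12 trophectoderm markers were 4330 to 6488 CPM in split blastocysts, all above the 2005 to 3083 CPM of controls. Krt8 (1753 against 643 CPM) and Krt18 (2600 against 869 CPM), the keratin pair of outer cells, made up most of that sum. None of the 12 markers was called, and their median log2 difference was 0.05, against 0 over all tested genes, so the higher sum did not hold for the list as a whole. Primitive endoderm markers summed to 639 to 962 CPM against 601 to 694 CPM, with Sox7 at 0 in all embryos of both groups and Foxa2 at 0 in the controls. Of these markers 10 were tested and none was called, with a median log2 difference of -0.71. The part of these markers, of the mitochondrial share and of depth (13.4 to 25.2 M against 11.3 to 12.7 M) in the Sox2 values was not tested.

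The remaining factors overlapped between split and control blastocysts. Nanog ranged from 125 CPM through a median of 207 to 288 CPM in split and from 167 to 230 CPM in control blastocysts (log2 0.14, 95% interval -1.45 to 1.74). Zfp42 had a log2 difference of 0.06 (-0.56 to 0.67) and Klf5 of -0.26 (-1.08 to 0.57). The other estimates were -0.37 for Nr5a2, -0.56 for Klf4, -0.79 for Klf2, -1.26 for Esrrb, -0.31 for Fgf4 and 0.70 for Tdgf1. Esrrb ranged from 2.24 to 24.4 CPM in split and from 19.2 to 26.5 CPM in control blastocysts, and of the split embryos the second of pair 3 alone came into the control range. That embryo also had the highest Tdgf1 of all 24, at 223 CPM, and the highest Klf4 (44.1 CPM) and Klf2 (20.6 CPM) of its group.

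From split morula to split blastocyst none of the 10 was called by edgeR, against 4.17% of all tested genes. An unadjusted p under 0.05 was found for 2, Klf2 and Nr5a2, against 20.2% of all tested genes. DESeq2 called 0, and limma-voom and limma on log2(TPM + 1) called 1 each, Sox2. Embryos overlapped for all 10, where 7.15% of tested genes had none that overlapped. Sox2 went from 2.03 ± 1.85 to 11.8 ± 5.81 CPM over 3 pairs each (log2 2.62 ± 1.31, adjusted p = 0.269, edgeR). Nr5a2 differed by log2 -0.85 ± 0.31 (adjusted p = 0.132) and Klf2 by log2 -1.16 ± 0.51 (adjusted p = 0.214).

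Whether the split effect itself differed between stages was tested as an interaction. None of the 10 factors passed by edgeR, DESeq2, limma-voom or limma on TPM, where edgeR called 1.64% of all tested genes. Klf2 had the only unadjusted p under 0.05, against 14.3% of all tested genes. Klf2 averaged 27.5 CPM in split and 17.1 CPM in control morulae, but 12.3 CPM in split and 22.5 CPM in control blastocysts. The interaction was log2 -1.47 ± 0.68 (adjusted p = 0.321, edgeR). The estimate was below 0 for 7 of the 10 factors, with a median of -0.62 against 0.05 over all tested genes.

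Sister embryos were then compared directly, since each pair descends from the same two-cell embryo. In split morulae, sisters differed by a median of 1.18 on the log2(CPM + 1) scale over the 10 factors, and non-sisters by 1.24. In split blastocysts both medians were 0.72. Over all tested genes the medians were 0.49 for sisters and 0.74 for non-sisters in morulae, and 0.42 and 0.54 in blastocysts. Sisters were closer than non-sisters for 4 of the 10 factors in morulae, Nanog, Klf4, Zfp42 and Tdgf1, and for 7 of 10 in blastocysts. With 3 pairs per stage these are descriptions with no test.

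Sox2 was found in 1 sister and not in the other in 2 of the 3 split morula pairs. Blastomere 1 of pair 1 gave a morula with 0 reads and blastomere 2 a morula with 103 reads (7.23 CPM). Pair 2 repeated this with 0 and 89 reads (4.93 CPM). By counting error alone, the libraries with 0 reads allow at most 0.173 and 0.159 CPM. That limit leaves out transcripts lost before sequencing, whose part was not tested. The largest sister difference of the 10 factors was that of Fgf4, 18.9-fold on the CPM + 1 scale in pair 2, at 101 CPM against 4.37, and in that pair Klf2 was at 49.1 and 9.30 CPM and Esrrb at 4.24 and 0 CPM, each higher in the same embryo as Fgf4. Nanog, Nr5a2, Klf4 and Klf5 were also higher in that embryo, whereas Sox2, Zfp42 and Tdgf1 were higher in its sister.

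Nr5a2 differed between sisters by a nearly constant factor in all 3 split morula pairs: 150 against 59.4 CPM, 97.3 against 41.0 CPM and 214 against 92.0 CPM. The folds on the CPM + 1 scale were 2.49, 2.34 and 2.31. In split blastocysts Nr5a2 differed 2.31-fold in pair 2 and by 1.24 and 1.11-fold in the others. Klf5 and Zfp42 were the most even, with sister folds of at most 1.88 and 2.38 over the 6 pairs. For both, the sister fold was largest in the third split morula pair.

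**Figure D4:**
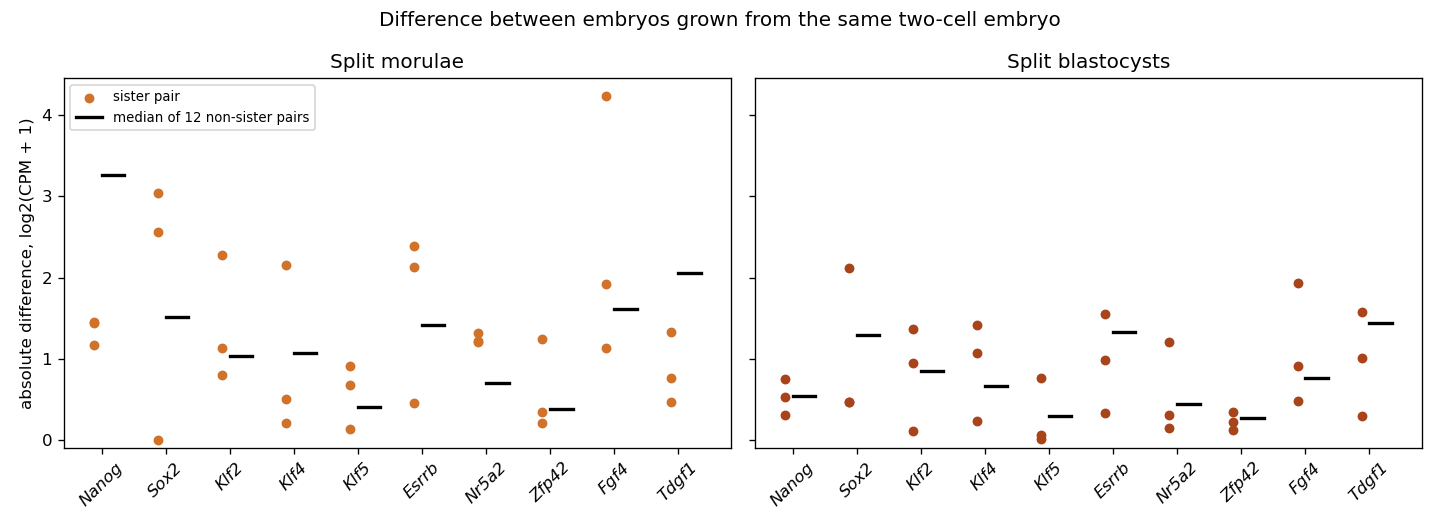
Absolute difference in log2(CPM + 1) between the sister embryos of each of 3 pairs (points), and the median over 12 non-sister pairs (black bar), per factor, at the split morula and split blastocyst stages. Nanog sisters lie well below the non-sister median in morulae, where pair 3 is low in both embryos, whereas all 3 Nr5a2 pairs lie above it.

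How far embryos of a group differed was also set against genes of like level. Fgf4 stood at the high end in control morulae, where 99.7% of such genes had a smaller SD of log2(CPM + 1), as in control blastocysts. Tdgf1 did so in split blastocysts (99.4%) and control blastocysts (97.4%), and Nanog in 8-cell embryos (96.5%). Esrrb and Klf2 were in the middle or below at the 8-cell stage, at 23% and 37.8%. Nanog in control morulae (54.1%) and control blastocysts (51.2%) was unremarkable.

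The genes whose 5 group means followed each factor most closely were named by the smallest root mean square difference of centred log2(CPM + 1), among the 7161 other tested genes whose mean on that scale was 3 or more. For Nanog this was Zfand1 (0.11), for Klf2 Tnks2 (0.12), for Klf4 Polr3a (0.03), for Klf5 Slc35e2 (0.06) and for Esrrb Fam76b (0.15). For Nr5a2 it was Npat (0.10), for Zfp42 Man2b1 (0.06), for Fgf4 Angel2 (0.09) and for Tdgf1 Carnmt1 (0.06). Sox2, itself below that mean, was nearest to Rai14 (0.27 over 7162 genes), a larger distance than for the other 9. None of the 10 factors was the nearest gene of another.

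The signalling partners of the factors were read from lists by pathway. For the FGF pathway, through which Fgf4 acts, 4 of 22 genes rose and 6 fell from 8-cell to morula, where 14.3% of all tested genes were called higher and 10.7% lower. Etv5, a transcription factor induced by FGF signalling, rose by log2 3.12 ± 0.85, and Nras by 2.28 ± 0.27, and the other 2, named after their values were seen, were Map2k2 and the barely detected Etv4. Fgfr1, a receptor for Fgf4, fell from a mean of 37.0 to 6.18 CPM (log2 -2.51 ± 0.69, adjusted p = 0.0108, edgeR). The 8-cell embryos ranged from 3.69 to 105.7 CPM, with a median of 19.4, and overlapped the morulae. From the same morula mean Fgfr1 then rose to 31.5 CPM in control blastocysts (log2 2.26 ± 0.72, adjusted p = 0.0481). Frs2, the receptor adaptor, and Spry2, a feedback inhibitor, also rose to the blastocyst, by log2 1.91 and 1.38, so 3 of the 22 rose and none fell, against 3.12% of all tested genes called higher and 10.6% called in either direction. Fgfr2 was at 29.5 CPM in control morulae and 91.9 CPM in control blastocysts (log2 1.55 ± 0.59, adjusted p = 0.101). The list medians were -0.16 from 8-cell to morula and 0.47 from morula to blastocyst, against 0.09 and 0.11 over all tested genes.

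Among the Nodal and Cripto genes, 4 of 12 rose from 8-cell to morula and none fell, against 14.3% of all tested genes called higher and 24.9% called in either direction. Gdf3, a ligand that uses Cripto, went from 3.36 to 28.0 CPM (log2 3.14 ± 1.08, adjusted p = 0.0428, edgeR). The receptor gene Acvr2b rose by log2 2.91 ± 0.92 and Furin, a convertase that processes Nodal, by 2.46 ± 0.60. The fourth was Cfc1, a Cripto relative at 0 in 8-cell embryos and 1.43 CPM in morulae, outside the naming rule and named after its values were seen. Pcsk6, another convertase, was the only one called to the blastocyst (log2 1.99 ± 0.52), against 10.6% of all tested genes. Nodal averaged 0.380 CPM in control morulae, with a median of 0 and a maximum of 1.90 CPM. It was at 0 in the other 4 groups and was not tested. In the LIF list 3 of 7 genes were called from 8-cell to morula, against the same 24.9%: Stat3 rose by log2 4.36 ± 0.83, and Jak2 and Socs3 fell, by -3.23 ± 1.11 and -2.87 ± 1.03. The medians of the Nodal and LIF lists in that comparison were 2.27 and -0.66.

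Other genes of the naive network were read the same way. From 8-cell to morula, 5 of 17 tested rose and 3 fell, against 14.3% and 10.7% of all tested genes, with a list median of 0.65 against 0.09. Those that rose were Tet2, Lin28a and Tfcp2l1 (log2 4.82, 3.04 and 2.87) and, named after their values were seen, Sall4 and Dppa5a, and those that fell were Dppa3, Fbxo15 and Tet1, likewise named afterwards. In split against control blastocysts 5 of the 17 were called higher and none lower, where the 10 factors had no call and 4.74% of all tested genes did. Pou5f1 was at 58.6 against 7.73 CPM (log2 3.02 ± 0.78, adjusted p = 0.0240, edgeR), Utf1, a chromatin-bound pluripotency protein, at 115 against 30.6 CPM, and Dppa2, an activator of early embryonic genes, at 900 against 413 CPM. Dppa3 and Dppa4, named after their values were seen, completed the 5 (log2 0.81 ± 0.19 and 0.90 ± 0.18). Uncalled genes went the other way. Zfp281, Tet1, Tet2, Tbx3, Sall4 and Tfcp2l1, likewise named afterwards, were lower with no overlap of embryos (log2 from -1.17 to -0.25). None of these passed, with adjusted p of 0.0714 (Tet1, edgeR) or more. From control morula to control blastocyst, a comparison that uses the same 3 control blastocysts, 1 of the 17 rose, Tet1, and 5 fell, where 10.6% of all tested genes were called: Fbxo15 (log2 -2.08 ± 0.16), Dppa3 (-1.86 ± 0.18) and, named afterwards, Dppa2, Dppa4 and Lin28a. From split morula to split blastocyst, where 4.17% of all tested genes were called, Fbxo15, Sall4 and Dppa4 fell, by log2 -1.81, -1.14 and -0.85. Of the 17, Dppa3 alone passed the interaction, against 1.64% of all tested genes (log2 1.22 ± 0.26, adjusted p = 0.0155). The list median was 0.52 in split against control blastocysts and -0.63 from morula to blastocyst. Split and control morulae had no call in this list; Pou5f1 there was at 58.7 against 16.1 CPM, with no overlap of embryos, and did not pass (log2 1.85 ± 0.63, adjusted p = 0.227).

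Gata6, the primitive endoderm factor that Nanog opposes, was at 231 CPM in 8-cell embryos, 122 in control morulae and 141 in control blastocysts, and no comparison of it passed. It averaged 72.7 CPM in split blastocysts, with no overlap with controls (log2 -0.90 ± 0.42, adjusted p = 0.316, edgeR). Of the trophectoderm regulators, Gata3 rose from 5.71 to 208 CPM between 8-cell and morula and to 794 CPM in control blastocysts (adjusted p = 3.57e-06 and 0.0189), while Cdx2 went from 0.521 to 1.45 and 17.2 CPM without passing. Both overlapped between split and control embryos at each stage.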

How the data were processed

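Smart-seq2 libraries (oligo(dT)-primed, full-length cDNA, no molecular identifiers) were made from 24 single embryos. The count table deposited by the authors holds raw read counts per gene symbol, and the TPM table deposited by the authors holds TPM values of a filtered gene set. FastQC, MultiQC, cutadapt, HISAT2, featureCounts and edgeR and the build GRCm39 are named, without versions, per the submitters' processing notes. The annotation release, the strand setting and the treatment of reads with several matches are not given in the sources used here, so genes with processed copies, Nanog, Tdgf1 and Pou5f1 among them, carry that uncertainty.

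Counts of sister embryos were summed, which gave 18 units in 5 groups. Genes kept by filterByExpr (15875) were scaled by TMM, and all 5 groups entered a single robust quasi-likelihood fit in edgeR with 13 residual degrees of freedom. Called means a Benjamini-Hochberg adjusted p under 0.05 over all tested genes, two-sided, with no minimum fold. An adjusted p with no tool beside it comes from edgeR's F test. Standard errors are the log2 fold change over the square root of F, and intervals are 95%. CPM per embryo used TMM over 24 embryos, and group means averaged sisters first. Total counts per embryo, 11.3 to 38.5 M, set the counting limits, and a count of 0 was given a limit of 3 counts. Nothing says that controls came from separate litters or cultures, so a p-value here speaks only of differences among the sequenced embryos. Alternatives were DESeq2, RLE scaling, no filter, other treatments of sisters, limma-voom, limma with trend on log2(TPM + 1) or log2(TPM + 0.1), a replicate block, a fit of the compared groups only, and leaving out each unit. The fitting code was tested on simulated data.

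The members, the lists, the tests and the naming rule were chosen with earlier results of these data known. Named were all 10 factors, Pou5f1, Gata6, Cdx2, Gata3, Fgfr1, Fgfr2 and Nodal, and per list and comparison up to 3 called genes whose mean log2 CPM was 3 or more, the largest changes first; others are marked in the text. Further lists were later epiblast genes and other KLF and SOX family genes. Of 5 later epiblast genes tested from 8-cell to morula, Dnmt3b rose by log2 2.43 and Fgf5 fell, against 24.9% of all tested genes called. Fgf5, named after its values were seen, went from 3.30 to 0 CPM, and its embryos overlapped. Its mean log2 CPM of 0.03 was below the limit of the naming rule. Promoter windows are RefSeq's on GRCm38.p6, and no coordinates were converted. The software was edgeR 4.0.16, DESeq2 1.42.0 and limma 3.58.1, under R 4.3.3.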

Additional observations from a re-analysis of the deposited data

Results flagged for a closer look

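Single embryos far from the rest of their group were looked for in 39 sets of a factor and a group of 4 to 10 embryos, by the gap to the nearest embryo over the range of the group. The limits used would single out about 5% of sets of independent, normally distributed values, and 3 were found. Sister embryos are not independent and the shape of the CPM values was not checked, so the chance rate for these sets is not known. Klf2 was at 39.2 CPM in control morula 4, against 8.46 to 14.02 CPM in the other 4. Tdgf1 was at 181 CPM in the second embryo of split morula pair 3 and at 223 CPM in the second embryo of split blastocyst pair 3, each the highest of 6. The pair numbers of the 2 stages do not link the same embryos.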

How the results depend on the processing

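Of 60 results (10 factors in 6 comparisons), 9 were called. The 6 calls of Nanog, Sox2, Klf2, Klf4, Nr5a2 and Zfp42 from 8-cell to morula held in each of 21 alternatives, and no called direction reversed. The calls of Esrrb and Fgf4 there were lost in 11 and 12 of 21 alternatives and that of Sox2 from morula to blastocyst in 10 of 20. Of 51 uncalled results, 45 were called in no alternative and 6 in some.

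The number of factors called from morula to blastocyst, 1, became 3 in a fit of the compared groups and in each of the 3 fits on TPM, 0 with each split embryo as its own sample, with only blastomere 2 and with the replicate block, and 0 to 1 with an embryo left out. In split blastocysts against controls it became 1 (Sox2) in a fit of the compared groups. In split blastocysts against split morulae it became 2 (Sox2 and Nr5a2) with only blastomere 1, and 1 with limma-voom and with limma on log2(TPM + 1), with or without a filter at a mean TPM of 1.

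Over all tested genes, DESeq2 called 1865 between split stages, 1455 for split blastocysts, 832 for split morulae, 2775 from morula to blastocyst and 975 for the interaction, against 662, 752, 20, 1680 and 260 by edgeR. With each split embryo as its own sample the counts were 2205 between split stages, 191 for split morulae and 391 for the interaction, and limma-voom gave 2903 and 159 for the first pair of these. The compared groups alone gave 413 between split stages, 2037 for split blastocysts, 4 for split morulae and 392 for the interaction. Limma on log2(TPM + 1), on log2(TPM + 0.1) and with the filter gave 1380, 1143 and 1369 between split stages, 39, 32 and 44 for split morulae, 3520, 2786 and 3329 from morula to blastocyst, and 114, 72 and 145 for the interaction. Split morulae gave 69 without the filter on low counts and 131 with only blastomere 2, and the interaction 132 with only blastomere 1. Leaving out an embryo or pair gave 292 (without split blastocyst pair 3) to 632 between split stages, 408 (without blastocyst 1) to 552 for split blastocysts, 4 (without morula 2 or 3) to 51 (without pair 1) for split morulae, 1083 (without blastocyst 1) to 1524 from morula to blastocyst and 108 (without blastocyst 1) to 225 for the interaction. Where an arm kept 2 units, the spread was pooled over groups. The cause of these changes was not tested.

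The share of calls that were higher, from morula to blastocyst, was 29.5% by edgeR, 41.5% by DESeq2, 54.4% by limma-voom and 76.2% on log2(TPM + 1). Between split stages it was 29.3% by edgeR, 48.9% by DESeq2 and 73.2% by limma-voom, and in split against control blastocysts 72.2%, 61.2% and 49.1%. On log2(TPM + 1) these were 62.2% and 45.5%, and the interaction had 83.8% by edgeR, 64.9% by DESeq2 and 39.5% on log2(TPM + 1). For split morulae it was 55%, 39.8% and 76.9%, and 11.9% by limma-voom. The median change of all genes moved from 0.11 to 0.37 on log2(TPM + 1) from morula to blastocyst, and with limma-voom from 0.05 to 0.51 between split stages and from 0 to -0.36 in split morulae.

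Deviations of same-numbered embryos of compared groups were only weakly correlated (from -0.0331 to 0.0849). With so few embryos per group this cannot tell whether the numbers mark a shared batch or culture. Each number correlated best with its own in 3 of 3 cases only between split stages. With the replicate block, 169 genes were called for the interaction.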

Other observations

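Beyond the 10 factors, relatives from their own gene families moved at the same steps. Klf6 had 0 counts in 8-cell embryos and 74.6 CPM in control morulae, at least 681-fold higher than the limit of 3 counts. Klf17, a family member of the early cleavage embryo, fell from 58.8 to 1.25 CPM (log2 -5.46 ± 1.61, adjusted p = 0.0203, edgeR), and Sox21 fell from 40.5 to 7.17 CPM (log2 -2.43 ± 0.86). Of 17 tested KLF, SOX and receptor relatives, 2 rose (Klf6 and Klf13) and 4 fell (Klf17, Sox21, Sox15 and Sox4) from 8-cell to morula, against 24.9% of all tested genes called, 14.3% higher and 10.7% lower, with a list median of -0.69.

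Sox15, a SOX gene also active in embryonic stem cells, fell in control embryos at the step at which Sox2 rose. It was at 302 CPM in 8-cell embryos, 177 in control morulae and 5.70 in control blastocysts, a fall of log2 -5.05 ± 0.34 in the last step (adjusted p = 6.06e-09, edgeR). In split embryos it was at 312 CPM in morulae and 21.8 CPM in blastocysts (log2 -3.83 ± 0.33, adjusted p = 8.09e-07). Split blastocysts were above control blastocysts, which were also the base of the preceding fall (log2 2.02 ± 0.31, adjusted p = 0.000382). Klf9 and Klf13 rose from control morula to control blastocyst, by log2 1.37 ± 0.40 and 0.92 ± 0.29, as did Klf15, which had 0 counts in morulae and 1.75 CPM in blastocysts. These 3 that rose and Sox15, of 17, stand against 10.6% of all tested genes called in that step. Klf13, Sox15 and Sox4 at the first step and Klf15 were named after their values were seen.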
